A study of Mus musculus with 18 samples.

Results

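The V1 domain of the vacuolar ATPase is the part of the proton pump that hydrolyses ATP, and the mRNAs of its subunits were followed here in total and in polysome-associated mRNA of macrophages exposed to LPS with or without the mTOR inhibitor torin1. The members were a list of subunit genes expressed in most cell types, Atp6v1a, Atp6v1b2, Atp6v1c1, Atp6v1d, Atp6v1e1, Atp6v1f, Atp6v1g1 and Atp6v1h, and all 8 were among the 11243 genes counted. The cells were RAW264.7, a single mouse macrophage line, without primary cells. Control cells received the vehicle (DMSO), and their time is not given in their labels. The LPS cells received LPS (Salmonella enterica serotype minnesota) at 500 ng/mL for 6 h. The third group (LPS+torin1) received 100 nM torin1 15 min ahead of the same dose of LPS, also for 6 h. No group received torin1 without LPS among the libraries analysed here. The 3 treatments were made in 3 independent experiments, and from each of the 9 lysates total mRNA and the mRNA of pooled heavy polysomes were sequenced as separate libraries, heavy polysomes being the gradient fractions in which several ribosomes sit on an mRNA.

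The V-ATPase acidifies lysosomes, endosomes and phagosomes, and in macrophages this acid activates the hydrolases that degrade engulfed material. In V1, A and B subunits alternate in a ring that hydrolyses ATP, a central stalk of D and F subunits turns inside the ring, and peripheral stalks of E and G subunits, held by C and H, keep the ring from turning. The rotor drives a ring in the membrane domain, V0, which carries the protons, and V1 can detach from V0, which silences the pump. The pump also serves as a platform for mTORC1 at the lysosome through the Ragulator and Rag GTPases, and the TFEB family of transcription factors, which mTORC1 keeps in the cytosol, binds a CLEAR element with the core CACGTG near the start of many lysosomal genes.

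Between 27800983 and 47725557 reads per library fell on the genes of the table, and the members had between 1082 and 20589 reads in a library, so counting error was small beside the spread between experiments. Levels are given as CPM, read counts scaled to the library size with edgeR's TMM factors within each RNA type. Total and polysome-associated levels are each relative to the other mRNAs of that RNA type, and in bulk lysates fewer cells and less RNA per cell cannot be told apart. Of 9 macrophage markers fixed for the check of the line, 8 were in the table, all but Mertk, and their summed level lay between 11245 and 14861 CPM in total mRNA. With LPS the polysome-associated mRNA of 5 of the 8 rose and of 1 fell, from 2.45 for Fcgr1 to −0.95 for Csf1r on the log2 scale. By the same test, described below, 26.4% of all genes rose and 28.7% fell. Of 7 fibroblast markers the table held only Pdgfrb, at 1.02 CPM or less in total mRNA, and of 8 lymphocyte markers it held 0. The table leaves out any gene with a count of 0 in a library, so a gene that is absent from it was not necessarily silent.

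The members lie apart in the genome (GRCm38, GENCODE M21). Atp6v1a is on chromosome 16 from 44085402 to 44139705, Atp6v1b2 on chromosome 8 from 69088646 to 69113711, Atp6v1c1 on chromosome 15 from 38661933 to 38692446 and Atp6v1d on chromosome 12 from 78840725 to 78861638. Atp6v1e1 is on chromosome 6 from 120794305 to 120822793, Atp6v1f on the same chromosome from 29467718 to 29470512, Atp6v1g1 on chromosome 4 from 63544772 to 63550750 and Atp6v1h on chromosome 1 from 5070018 to 5162529. Counts fall on exons, and the principal transcripts run from 703 bases in 2 exons for Atp6v1f and 1135 bases in 3 exons for Atp6v1g1 to 4234 bases in 15 exons for Atp6v1a. Processed pseudogenes that match a member's transcript at 90% identity or more over at least 200 bases were annotated for Atp6v1a (1), Atp6v1f (1) and Atp6v1g1 (4), with up to 99.4% identity for Atp6v1g1, so the reads of these 3 genes could have been split between copies. Exons of Atp6v1h share 127 bases with Rgs20 and exons of Atp6v1e1 share 32 bases with Slc25a18, both on the opposite strand, but Rgs20 stayed at or below 0.772 CPM and Slc25a18 at or below 1.95 CPM in every library.

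Promoter windows from 250 bases before to 50 bases after a RefSeq start (GRCm38.p6) were at hand for 4 of the 8 members, Atp6v1a, Atp6v1d, Atp6v1e1 and Atp6v1f. Windows for Atp6v1b2, Atp6v1c1, Atp6v1g1 and Atp6v1h were not used here. The letters CACGTG, which read the same on both strands, were in 7.15% of all 32851 windows, and TCACGTGA, which contains them, in 0.974%. Of the member windows, that of Atp6v1a held CACGTG once, as part of TCACGTGA, and those of Atp6v1d, Atp6v1e1 and Atp6v1f held none. Among 10 V0 and accessory genes with a window, Atp6v0b, Atp6v0d1 and Atp6v0e held CACGTG, in Atp6v0d1 and Atp6v0e as part of TCACGTGA too. The stretches around the match are shown 5′ to 3′ on the strand of the gene, with CACGTG in capitals, because they are the stretches, 1 per gene, in which the windows at hand held the core of the element. They lie at chr16:44139373-44139402 (minus strand), chr4:117887348-117887377 (minus strand), chr8:105566050-105566079 (minus strand) and chr17:26676387-26676416 (plus strand), in the order printed.
Atp6v1a: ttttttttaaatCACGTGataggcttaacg
Atp6v0b: gtgcgcgggggtCACGTGgggtcggcgcat
Atp6v0d1: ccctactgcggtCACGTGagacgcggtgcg
Atp6v0e: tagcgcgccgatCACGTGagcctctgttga
The match begins at −131 from the RefSeq start in Atp6v1a, at −36 in Atp6v0b and at −3 in Atp6v0d1, while in Atp6v0e it begins at base 4 of the transcript, inside annotated exon sequence. The Atp6v1a stretch lies within the GENCODE span of that gene given above, outside its annotated exons. Atp6v0b has 2 matches, of which the one farther upstream is shown. A match is a run of letters and was not tested as a binding site.

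With LPS a subset of the V1 mRNAs was called higher, in numbers not far above the shares of all genes. A larger and partly different subset was called higher with LPS+torin1 than with LPS. In total mRNA, Atp6v1d, Atp6v1e1, Atp6v1g1 and Atp6v1h rose with LPS at an adjusted p of at most 0.25 in edgeR's quasi-likelihood test, and 0 of the 8 fell. The study set this threshold for another tool, anota2seq. Of all genes 66.5% passed in either direction, 32.2% were higher and 34.3% lower. In polysome-associated mRNA, Atp6v1d, Atp6v1e1 and Atp6v1h rose and 0 fell, against 55.1% of all genes in either direction, 26.4% higher and 28.7% lower. Of the members, 6 were higher with LPS+torin1 than with LPS in total mRNA (53.7% of all genes in either direction, 27.3% higher and 26.4% lower) and 5 in polysome-associated mRNA (38.4%, 20.3% and 18.2%), and again 0 were lower. Against control, LPS+torin1 cells had 8 members higher in total mRNA (66.7%, 33.1% and 33.6%) and 7 in polysome-associated mRNA (58.2%, 28.5% and 29.7%), with 0 lower in either. The LPS libraries stand in the first and the second of these comparisons, the control libraries in the first and the third, and the LPS+torin1 libraries in the second and the third, so the comparisons are not independent of each other.

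In total mRNA the median log2 fold change of the 8 members was 0.24 with LPS, 0.42 between LPS+torin1 and LPS and 0.66 between LPS+torin1 and control, while the medians over all genes lay between −0.02 and 0.00. In polysome-associated mRNA the member medians were 0.27, 0.34 and 0.82, in the same order, and the medians of all genes lay between −0.03 and 0.00. Taken within each experiment, the member median with LPS was 0.37, 0.33 and 0.22 for total and 0.54, 0.29 and 0.25 in polysome-associated mRNA of experiments 1, 2 and 3. The median between LPS+torin1 and LPS was 0.24, 0.31 and 0.59 in total mRNA and 0.41, 0.26 and 0.41 in polysome-associated mRNA. It was above 0 in every experiment in both RNA types, so no single experiment carried the direction of the group. The groups of libraries did not overlap, with the higher levels after LPS, for 3 members in either RNA type, where 25.6% and 22.2% of all genes were arranged that way. The same held between LPS+torin1 and LPS for 6 and 5 members, against 22.2% and 17.3% of all genes. Against control, the LPS+torin1 levels were separate and higher for all 8 members in total and for 6 in polysome-associated mRNA, against 30.2% and 23.3% of all genes.

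**Figure D1:**
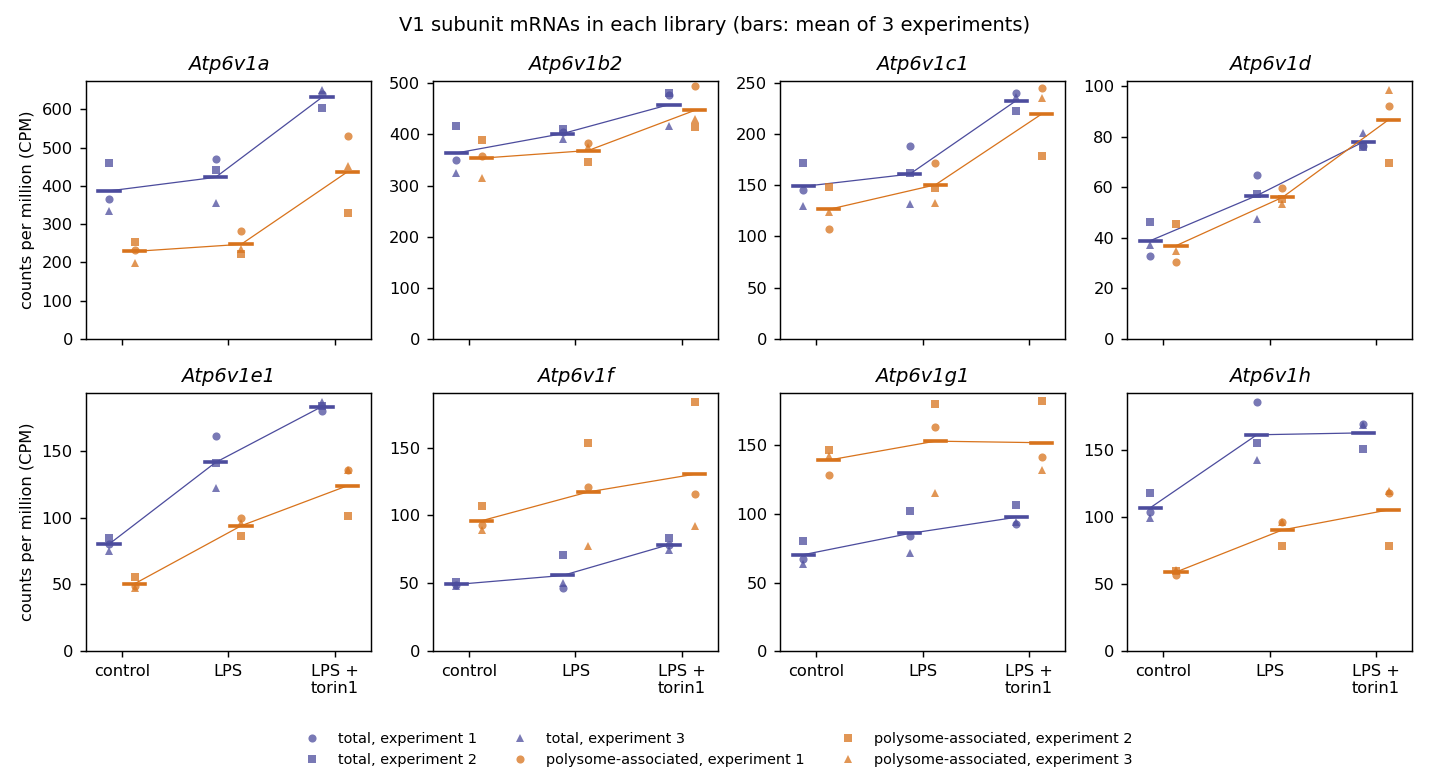
Level of each V1 subunit mRNA in CPM (vertical axis, linear, from 0) in control, LPS and LPS+torin1 cells, with 1 symbol per library, shaped by experiment, and bars at the mean of 3 experiments, blue for total and orange for polysome-associated mRNA. For Atp6v1e1 the mean of total mRNA climbs from 80.2 to 141 and 183 CPM, whereas polysome-associated Atp6v1g1 stays between 139 and 153 CPM.

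Of the ATPase ring, Atp6v1a encodes the A subunit, which binds and hydrolyses ATP. In total mRNA it had 365, 461 and 335 CPM in controls, 469, 442 and 356 CPM with LPS, and 640, 603 and 652 CPM with LPS+torin1, in experiments 1, 2 and 3. The polysome-associated levels were 233, 254 and 199 CPM in controls, 283, 223 and 235 CPM with LPS and 530, 329 and 452 CPM with LPS+torin1. The control and LPS libraries thus overlapped in both RNA types, and every library with torin1 lay above all of the others. On the log2 scale its change with LPS was 0.13 (standard error 0.14, adjusted p = 0.501, edgeR) in total and 0.11 (standard error 0.19, adjusted p = 0.701, edgeR) in polysome-associated mRNA. Torin1 raised it over LPS alone by 0.58 (standard error 0.14, adjusted p = 0.0130, edgeR) in total and by 0.82 (standard error 0.20, adjusted p = 0.0208, edgeR) in polysome-associated mRNA, the latter a fold of 1.77. Without experiment 2 the polysome-associated change with LPS was 0.26 and passed (adjusted p = 0.234, edgeR).

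Atp6v1b2 encodes the B subunit, which alternates with A in the ring. It was among the most abundant of the members and moved least in total mRNA between LPS+torin1 and control. Its total mRNA had 351, 416 and 324 CPM in controls, 404, 411 and 390 CPM with LPS and 477, 481 and 417 CPM with LPS+torin1. Polysome-associated levels were 357, 390 and 314 CPM, then 384, 346 and 376 CPM, then 495, 415 and 431 CPM. Control and LPS overlapped in both RNA types, and the torin1 libraries lay above them. The log2 fold change with LPS was 0.14 (adjusted p = 0.333, edgeR) in total mRNA, or 0.15 (adjusted p = 0.161, edgeR) with the experiment as a replicate block and 0.24 (adjusted p = 0.171, edgeR) without experiment 2, and 0.06 (adjusted p = 0.790, edgeR) in polysome-associated mRNA. From LPS to LPS+torin1 it was 0.19 in total (adjusted p = 0.239, edgeR) and 0.28 in polysome-associated mRNA (adjusted p = 0.225, edgeR). Both are close to the threshold. In total mRNA the call was lost without any one of the experiments (adjusted p from 0.337 to 0.490, edgeR), with DESeq2 (adjusted p = 0.307), and in edgeR with RLE factors, with only the treatments compared or with all 18 libraries in the model (adjusted p = 0.292, 0.287 and 0.302). In polysome-associated mRNA it was lost without experiment 1 or 3 (adjusted p = 0.621 and 0.543, edgeR), with DESeq2 (adjusted p = 0.271) and with RLE factors (adjusted p = 0.268, edgeR). Against control, the change with LPS+torin1 was 0.33 in total (adjusted p = 0.0340, edgeR) and 0.34 in polysome-associated mRNA (adjusted p = 0.0932, edgeR), a fold of 1.26 in each. The call in polysome-associated mRNA was lost without experiment 1 or 3 (adjusted p = 0.435 and 0.428, edgeR).

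The central stalk is made of the D and F subunits. Atp6v1d, the D subunit, had 32.9, 46.4 and 37.3 CPM in total mRNA of control cells, 65.0, 57.5 and 47.5 CPM with LPS and 76.4, 75.9 and 81.4 CPM with LPS+torin1. Its polysome-associated mRNA had 30.2, 45.5 and 34.8 CPM, then 59.5, 55.2 and 53.1 CPM, then 92.1, 69.5 and 98.5 CPM. The 3 treatments did not overlap in either RNA type. On the log2 scale it rose with LPS by 0.54 (standard error 0.15, adjusted p = 0.0111, edgeR) in total and by 0.60 (standard error 0.19, adjusted p = 0.0302, edgeR) in polysome-associated mRNA, the latter with adjusted p = 0.309 (edgeR) without experiment 1, in which the change was largest. Torin1 raised it further over LPS, by 0.46 (adjusted p = 0.0370, edgeR) in total and 0.63 (adjusted p = 0.0470, edgeR) in polysome-associated mRNA. Without experiment 3 these were 0.31 (adjusted p = 0.307, edgeR) and 0.51 (adjusted p = 0.422, edgeR). Against control, the LPS+torin1 cells had a fold of 2.00 in total (adjusted p = 0.000290, edgeR) and of 2.35 in polysome-associated mRNA (adjusted p = 0.000597, edgeR).

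Atp6v1f, the F subunit, had 48.8, 50.9 and 47.6 CPM in total mRNA of control cells, 46.3, 70.7 and 50.1 CPM with LPS and 78.0, 83.2 and 74.2 CPM with LPS+torin1. In polysome-associated mRNA it had 92.7, 106.6 and 89.0 CPM in controls, 121.2, 153.1 and 77.6 CPM with LPS and 115.8, 183.2 and 92.1 CPM with LPS+torin1. The torin1 libraries stood above all others in total mRNA, whereas in polysome-associated mRNA all 3 treatments overlapped and experiment 2 was the highest in each of them. The total change between LPS+torin1 and LPS was 0.49 (standard error 0.15, adjusted p = 0.0279, edgeR), and the polysome-associated change was 0.15 (standard error 0.28, adjusted p = 0.755, edgeR), with the largest standard error of the members. Its changes with LPS, 0.18 in total (adjusted p = 0.330, edgeR) and 0.29 in polysome-associated mRNA (adjusted p = 0.473, edgeR), did not pass. The total change passed with the replicate block (0.17, adjusted p = 0.239, edgeR) and without experiment 1 (0.31, adjusted p = 0.202, edgeR). Total mRNA of LPS+torin1 cells was higher than control by 0.68 (adjusted p = 0.00321, edgeR), and their polysome-associated mRNA passed at the edge of the threshold with 0.44 (adjusted p = 0.25, edgeR) although its groups overlapped. Without experiment 1 or 2 the latter call was lost (adjusted p = 0.470 and 0.495, edgeR).

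Of the peripheral stalks, Atp6v1e1 encodes the E subunit and had the largest rise of the members in both RNA types, with LPS and also between LPS+torin1 and control. It had 80.3, 85.0 and 75.4 CPM in total mRNA of control cells, 161.1, 140.9 and 122.5 CPM with LPS and 180.3, 183.5 and 186.4 CPM with LPS+torin1. Its polysome-associated levels were 48.4, 55.5 and 47.5 CPM, then 99.8, 86.2 and 95.8 CPM, then 135.7, 100.95 and 135.4 CPM. The treatments were separate in both RNA types. With LPS it rose by 0.82 (standard error 0.11, adjusted p = 0.000213, edgeR) in total and by 0.90 (standard error 0.16, adjusted p = 0.00150, edgeR) in polysome-associated mRNA, folds of 1.76 and 1.86. Torin1 raised it over LPS by 0.37 (adjusted p = 0.0294, edgeR) in total and 0.40 (adjusted p = 0.111, edgeR) in polysome-associated mRNA, and the latter call was lost without experiment 1 or 3 (adjusted p = 0.417 and 0.522, edgeR). The folds of LPS+torin1 cells over control were 2.29 in total (adjusted p = 1.67e-05, edgeR) and 2.46 in polysome-associated mRNA (adjusted p = 0.000144, edgeR).

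Atp6v1g1, the G subunit that pairs with E in these stalks, had small changes. Total mRNA had 66.9, 80.4 and 63.5 CPM in controls, 83.7, 101.9 and 71.8 CPM with LPS and 92.8, 106.2 and 93.9 CPM with LPS+torin1. Polysome-associated mRNA had 128.5, 147.0 and 142.6 CPM, then 163.8, 180.4 and 115.3 CPM, then 141.5, 182.2 and 132.3 CPM. Only total mRNA of LPS+torin1 against control was free of overlap. With LPS it rose by 0.29 in total mRNA (standard error 0.14, adjusted p = 0.123, edgeR), a call lost without experiment 1 (adjusted p = 0.292, edgeR), and its polysome-associated change was 0.14 (standard error 0.19, adjusted p = 0.629, edgeR). From LPS to LPS+torin1 the total change was 0.19 (adjusted p = 0.356, edgeR), which passed with the replicate block (0.20, adjusted p = 0.0825, edgeR) and without experiment 2 (0.26, adjusted p = 0.176, edgeR). The polysome-associated change was −0.01 (standard error 0.19, adjusted p = 0.977, edgeR). Over control, total mRNA of LPS+torin1 cells rose by 0.47 (adjusted p = 0.0187, edgeR), and the polysome-associated change was 0.13 (adjusted p = 0.642, edgeR), the only member below the threshold in that comparison.

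The C and H subunits sit where V1 meets V0 and are tied to the regulated assembly of the pump, H also as the subunit that holds back ATP hydrolysis in free V1. Atp6v1c1 had 145.5, 171.2 and 129.4 CPM in total mRNA of control cells, 188.2, 162.1 and 131.9 CPM with LPS and 239.4, 222.5 and 235.5 CPM with LPS+torin1. In polysome-associated mRNA it had 106.7, 148.5 and 123.7 CPM, then 171.7, 146.8 and 132.3 CPM, then 244.7, 178.5 and 235.1 CPM. As for Atp6v1a, control and LPS overlapped and the torin1 libraries lay above both. The changes with LPS were 0.11 (adjusted p = 0.556, edgeR) and 0.25 (adjusted p = 0.325, edgeR) in total and polysome-associated mRNA, and the latter was 0.40 without experiment 2 and passed (adjusted p = 0.0887, edgeR). Torin1 raised it over LPS by 0.53 (standard error 0.14, adjusted p = 0.0196, edgeR) in total and 0.55 (standard error 0.18, adjusted p = 0.0716, edgeR) in polysome-associated mRNA. Without experiment 3 the latter was 0.43 and did not pass (adjusted p = 0.502, edgeR).

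Atp6v1h rose at the step from control to LPS. Its total mRNA had 103.3, 117.9 and 99.5 CPM in controls, 185.8, 155.4 and 142.5 CPM with LPS and 169.2, 150.4 and 168.3 CPM with LPS+torin1, and its polysome-associated mRNA had 56.7, 59.6 and 60.3 CPM, then 96.5, 78.4 and 95.8 CPM, then 118.2, 78.1 and 119.5 CPM. All control libraries lay below all others, and LPS and LPS+torin1 overlapped in both RNA types. With LPS it rose by 0.59 (standard error 0.12, adjusted p = 0.00260, edgeR) in total and 0.62 (standard error 0.18, adjusted p = 0.0224, edgeR) in polysome-associated mRNA. Its change from LPS to LPS+torin1 was 0.01 in total mRNA (standard error 0.12, adjusted p = 0.949, edgeR), with a sign that turned to −0.0072 under another size factor, and 0.22 in polysome-associated mRNA (adjusted p = 0.441, edgeR), which without experiment 2 was 0.31 and passed (adjusted p = 0.155, edgeR). By these calls Atp6v1d and Atp6v1e1 passed with LPS and again between LPS+torin1 and LPS in both RNA types. Atp6v1a, Atp6v1c1 and, near the threshold, Atp6v1b2 passed in both RNA types between LPS+torin1 and LPS but not with LPS, and Atp6v1h passed with LPS but not between LPS+torin1 and LPS. Atp6v1f passed between LPS+torin1 and LPS, and Atp6v1g1 with LPS, in total mRNA only. With the replicate block, total Atp6v1b2 and Atp6v1f passed with LPS too, and total Atp6v1g1 passed between LPS+torin1 and LPS, so this sorting depends on the model. Whether one member's change differed from another's was not tested, and a call that misses the threshold does not show that a level stayed the same.

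**Figure D2:**
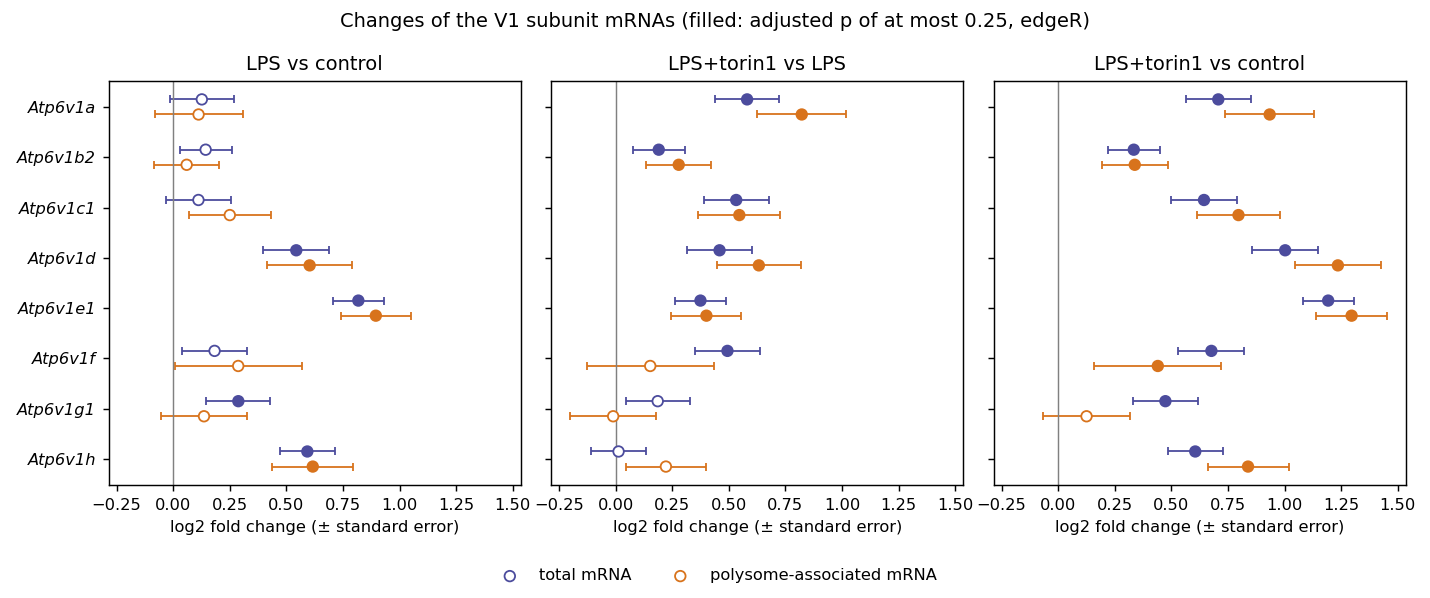
Log2 fold change of each V1 subunit mRNA (horizontal axis, ± standard error from edgeR) in the 3 comparisons, blue for total and orange for polysome-associated mRNA, with filled symbols for an adjusted p of at most 0.25. No filled symbol lies left of 0, and between LPS+torin1 and LPS the polysome-associated values of Atp6v1f (0.15) and Atp6v1g1 (−0.01) lie left of their total values (0.49 and 0.19).

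Translation efficiency asks whether polysome-associated mRNA changed more or less than total mRNA, and was tested with edgeR over the 18 libraries as an interaction between treatment and RNA type, with an adjusted p of at most 0.25 and a fold of at least 1.2. None of the 8 members passed with LPS, between LPS+torin1 and LPS, or between LPS+torin1 and control, and 0% of all genes did. With each lysate as a replicate block, again 0 members passed, and of all genes 0, 25 and 3 did in the order of these comparisons, all of them lower. At an unadjusted p under 0.05, 0 members stood out in any of the 3 comparisons, against 44, 110 and 145 of all 11243 genes, and DESeq2's Wald test and the analysis of partial variance also called 0 members. The counts over all genes are below a share of 0.05, so 0 of 8 members says little about their translation efficiency. In simulated counts with 200 genes changed by 1 on the log2 scale in polysome-associated mRNA only, the interaction test for LPS against control recovered 66.0% of them, so shifts of that size or smaller could have been missed. The simulated libraries were drawn independently, without effects of lysate or experiment, so the share recovered in the real data can differ. With LPS the member estimates ran from −0.15 for Atp6v1g1 (standard error 0.24) to 0.14 for Atp6v1c1 (standard error 0.24), and 5 of 8 were above 0. The estimates between LPS+torin1 and LPS ran from −0.37 for Atp6v1f (standard error 0.33) and −0.22 for Atp6v1g1 (standard error 0.24) to 0.22 for Atp6v1a (standard error 0.25). The adjusted p of each of these was 0.998 or more in edgeR. Atp6v1g1 had the lowest estimate between LPS+torin1 and control, −0.37 (standard error 0.24, adjusted p = 0.998, edgeR), and it was negative in each experiment, with −0.33, −0.09 and −0.67.

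How far each mRNA sat toward the heavy polysomes differed much more between members than between treatments. In control cells, polysome-associated minus total log2 CPM was 0.99 ± 0.16 for Atp6v1g1 and 0.96 ± 0.09 for Atp6v1f (SD, n = 3), at the percentiles 91.6 and 91.1 among all genes. It was −0.86 ± 0.13 for Atp6v1h, −0.75 ± 0.11 for Atp6v1a and −0.67 ± 0.06 for Atp6v1e1 (SD, n = 3), at the percentiles 9.8, 12.6 and 15.5. Between these lay Atp6v1b2 with −0.04 ± 0.06, Atp6v1d with −0.08 ± 0.05 and Atp6v1c1 with −0.24 ± 0.19 (SD, n = 3). Subunits that the complex needs side by side, such as E and G of the same stalk or D and F of the same rotor, thus stood at different places of this scale, and neighbours among the 3 middle members did not differ beyond their spread. The values with LPS+torin1 kept Atp6v1f (0.67 ± 0.42) and Atp6v1g1 (0.63 ± 0.14) at the top and Atp6v1h (−0.65 ± 0.25) at the bottom. Because each RNA type is scaled to its own total, 0 marks the average mRNA and not equal amounts. The percentiles are among genes of all lengths, and Atp6v1f and Atp6v1g1 have the shortest principal transcripts of the members. What part transcript length had in these values was not tested.

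**Figure D3:**
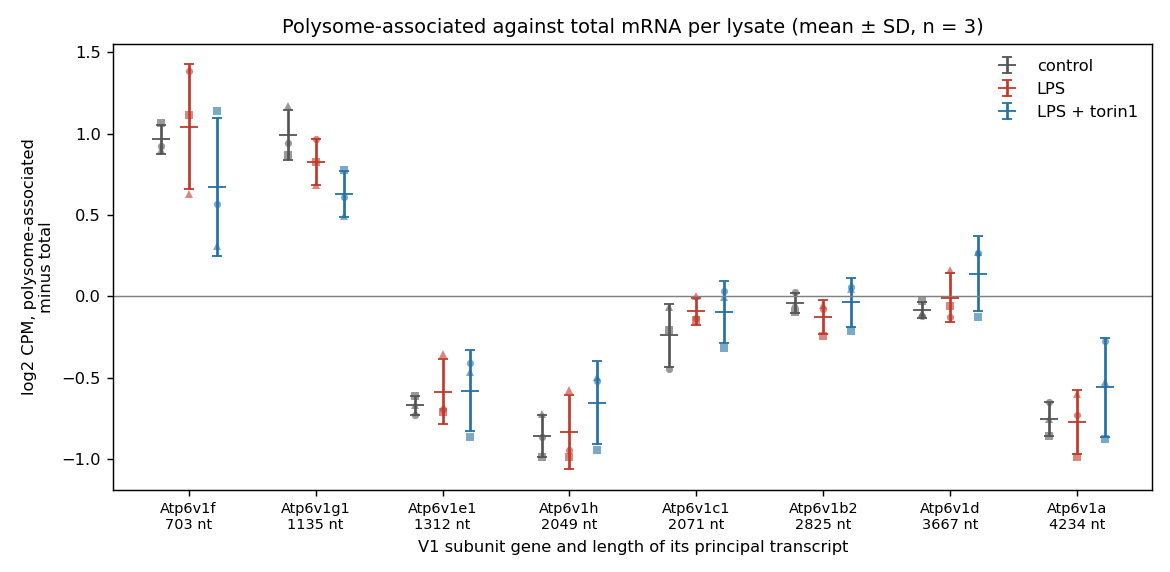
Polysome-associated minus total log2 CPM of each lysate (vertical axis) for the members, ordered from left to right by the length of the principal transcript in nucleotides, with points for the experiments and crossbars for the mean ± SD of 3. Atp6v1f and Atp6v1g1, the shortest, lie above 0 in every lysate, and Atp6v1e1, Atp6v1h and Atp6v1a lie below 0 in every lysate.

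The question whether the subunits move together was put to each pair of members as the Pearson correlation of log2 CPM over the 9 libraries of an RNA type, given as a description because the points share treatments, experiments and library scaling. In total mRNA all 28 pairs were above 0, with a mean r of 0.815 and a range from 0.513 (Atp6v1f with Atp6v1h) to 0.991 (Atp6v1a with Atp6v1c1), while the mean over all pairs of genes was 0.000715. About as many genes rose as fell, so the mean over all pairs lies near 0 and does not show how alike other rising genes are. In polysome-associated mRNA the mean over member pairs was 0.552, from −0.0964 (Atp6v1g1 with Atp6v1h) to 0.960, and 25 of 28 pairs were above 0. There the members fell apart in a way seen only once the values were known. The 15 pairs among Atp6v1a, Atp6v1b2, Atp6v1c1, Atp6v1d, Atp6v1e1 and Atp6v1h had a mean r of 0.864 and a lowest r of 0.714, and Atp6v1f with Atp6v1g1 had 0.936. The 12 pairs across these groups had a mean of 0.130 and a highest of 0.305. In total mRNA the same 3 kinds of pair had means of 0.844, 0.857 and 0.774.

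**Figure D4:**
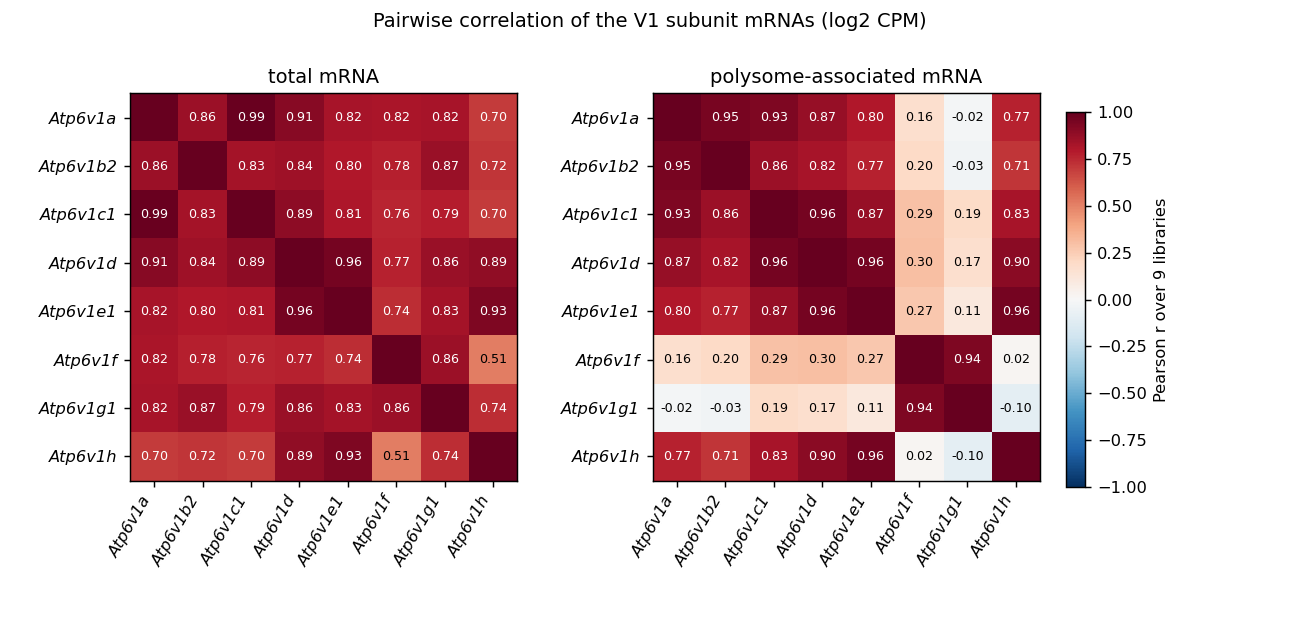
Pearson r of log2 CPM over 9 libraries for each pair of V1 subunit mRNAs, in total mRNA (left) and polysome-associated mRNA (right), coloured from −1 (blue) to 1 (red). All pairs of total mRNA are at 0.51 or more, and on polysomes the rows of Atp6v1f and Atp6v1g1 are pale against the other 6 members, from −0.10 to 0.30.

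In polysome-associated mRNA the same grouping was seen between experiments within a treatment, while in total mRNA only Atp6v1f stood apart. After the treatment means were subtracted, the 15 pairs among the 6 members had a mean r of 0.750 in total and 0.735 in polysome-associated mRNA, Atp6v1f with Atp6v1g1 had 0.746 and 0.954, and the pairs across had 0.289 in total and −0.363 in polysome-associated mRNA. In total mRNA Atp6v1f then had a mean r of 0.123 with the other members, and Atp6v1g1 had 0.585, above the 0.494 of Atp6v1b2. Experiment 2 of the LPS+torin1 cells shows the grouping in single values. In polysome-associated mRNA of that lysate the 6 members were on average 0.29 below their treatment mean on the log2 scale (−0.29), while Atp6v1f was 0.55 and Atp6v1g1 0.28 above it. In experiment 3 the deviations were 0.12 for the 6 members, −0.44 for Atp6v1f and −0.19 for Atp6v1g1. In polysome-associated mRNA of control cells, by contrast, Atp6v1f went with the 6 members. Over experiments 1, 2 and 3 the 6 deviated there by −0.09, 0.17 and −0.08 and Atp6v1f by −0.05, 0.15 and −0.11. Atp6v1g1 deviated by −0.11, 0.08 and 0.04.

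In polysome-associated mRNA with LPS and with LPS+torin1, short mRNAs as a class moved with Atp6v1f and Atp6v1g1. This comparison was added after the pair values were seen. For the 387 genes outside the members whose exons cover 1200 bases or fewer, the median deviation in polysome-associated mRNA with LPS+torin1 was −0.09, 0.32 and −0.26 in experiments 1, 2 and 3, and with LPS it was 0.02, 0.26 and −0.26. In control cells the polysome-associated median of the short genes was −0.04, 0.12 and −0.04, and the 6 other members went the same way. The medians of the other 10359 genes with a length stayed between −0.01 and 0.02 in every library. In total mRNA the medians of the short genes ran from −0.10 to 0.10. Atp6v1f deviated by 0.10, 0.44 and −0.54 and Atp6v1g1 by 0.12, 0.26 and −0.38 in polysome-associated mRNA with LPS, so the highest and the lowest library were the same for these genes and for the class. The part that transcript length had in the separation of Atp6v1f and Atp6v1g1 from the other members was not tested.

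Levels can be compared between members only per length. Per kilobase of the principal transcript, total mRNA of control cells ran from Atp6v1b2 with 128.7 ± 16.8 CPM, Atp6v1a with 91.4 ± 15.5, Atp6v1c1 with 71.8 ± 10.2 and Atp6v1f with 69.8 ± 2.4 to Atp6v1g1 with 61.9 ± 7.9, Atp6v1e1 with 61.2 ± 3.7, Atp6v1h with 52.2 ± 4.7 and Atp6v1d with 10.6 ± 1.9 CPM per kilobase (SD, n = 3). Neighbours from Atp6v1c1 to Atp6v1e1 did not differ beyond their spread. With LPS+torin1 the order was Atp6v1b2 with 162 ± 12.7, Atp6v1a with 149 ± 6.0, Atp6v1e1 with 140 ± 2.3 and Atp6v1c1 with 112.3 ± 4.3, followed by Atp6v1f, Atp6v1g1, Atp6v1h and again Atp6v1d, with 21.2 ± 0.8 CPM per kilobase. Which transcript each gene used was not measured. With the union of all exons as the length, Atp6v1b2 stayed first in control cells with 68.5 ± 8.9 CPM per kilobase, and Atp6v1g1 moved up to the third place. With LPS+torin1 that length put Atp6v1a first with 104.5 ± 4.2 CPM per kilobase, ahead of Atp6v1b2 with 86.4 ± 6.7, and Atp6v1h last with 16.7 ± 1.1, beside Atp6v1d with 16.9 ± 0.7 (SD, n = 3), so both ends of the order depended on the length used.

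Most genes of the membrane domain were also higher with LPS. Of 12 V0 and accessory genes 11 were in the table. With LPS, 9 rose and 1 fell in total mRNA, and 7 rose and 1 fell in polysome-associated mRNA. Of all genes 32.2% rose and 34.3% fell in total mRNA, and 26.4% and 28.7% in polysome-associated mRNA. From LPS to LPS+torin1, 9 rose and 1 fell in total mRNA, and 3 rose and 1 fell in polysome-associated mRNA, beside 5 of the 8 V1 members there. Of all genes 27.3% rose and 26.4% fell in total mRNA, and 20.3% and 18.2% in polysome-associated mRNA, so the latter 3 are near the share of all genes. With the replicate block polysome-associated Atp6v0d1 passed in this comparison too (0.28, adjusted p = 0.133, edgeR). Atp6v0a1, an a subunit, rose with LPS by 1.40 in total and 1.21 in polysome-associated mRNA (adjusted p = 0.000127 and 0.000448, edgeR), and Tcirg1, the a subunit of osteoclasts and macrophage lysosomes, by 1.15 and 0.95 (adjusted p = 4.93e-05 and 0.0135, edgeR). Atp6v0d2, the d subunit isoform of osteoclasts and macrophages, had −0.26 and −0.37 with LPS (adjusted p = 0.667 and 0.547, edgeR) and rose between LPS+torin1 and LPS by 2.02 and 2.26 (adjusted p = 0.00916 and 0.00884, edgeR), more than any V1 member. It is also one of 9 osteoclast markers, of which 7 were in the table, Calcr and Oscar being absent from it. Between LPS+torin1 and LPS, 4 of the 7 rose and 1 fell in total mRNA, and 4 rose and 0 fell in polysome-associated mRNA (4 and 2 with the replicate block, in either RNA type). Their polysome-associated summed level lay between 140.1 and 306.7 CPM with LPS and between 248.7 and 363.4 CPM with LPS+torin1. With LPS 3 of the 7 rose and 1 fell there, from 6.32 for Mmp9 to −0.97 for Nfatc1. The part of osteoclast-like cells in the change of Atp6v0d2 was not tested. Atp6v0e2, an isoform of the e subunit, was the one that fell with LPS (−0.81 and −0.73), and Atp6v0a2, another a subunit, was the one that fell between LPS+torin1 and LPS (−0.32 and −0.35).

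The remaining V0 and accessory genes had log2 fold changes with LPS, in total and polysome-associated mRNA, of 0.37 and 0.50 for Atp6v0b, 0.66 and 0.16 for Atp6v0c, 0.46 and 0.54 for Atp6v0d1 and 0.22 and 0.42 for Atp6v0e, and of 0.16 and 0.23 for Atp6ap1 and 0.22 and 0.32 for Atp6ap2, the accessory subunits. Of these, the polysome-associated changes of Atp6v0c (adjusted p = 0.810, edgeR) and Atp6ap1 (adjusted p = 0.290, edgeR) did not pass, that of Atp6ap1 passed with the replicate block (adjusted p = 0.132, edgeR), and that of Atp6v0c turned to −0.50 without experiment 2. Of the 5 tissue-restricted V1 isoforms the table held only Atp6v1g2, the G isoform best known from neurons, at 3.82 CPM or less in every library. It rose in total mRNA by 0.45 with LPS and by 0.43 between LPS+torin1 and LPS (adjusted p = 0.0971 and 0.132, edgeR), calls that were lost without experiment 3 (adjusted p = 0.320 and 0.361, edgeR), and the second also without experiment 2 (adjusted p = 0.341, edgeR). Its polysome-associated changes were 0.61 and 0.30 and did not pass (adjusted p = 0.322 and 0.679, edgeR), and the first passed with the replicate block (adjusted p = 0.214, edgeR).

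Genes that assemble or regulate the pump, a list of 13 with 12 in the table, fell more often than they rose with LPS. In polysome-associated mRNA 2 rose and 7 fell (beside 26.4% and 28.7% of all genes), and in total mRNA 2 rose and 7 fell (beside 32.2% and 34.3%). Vma21, a chaperone of V0 assembly, had the highest polysome-associated change of them (1.56, adjusted p = 0.000511, edgeR), and Rogdi, a subunit of the mammalian assembly factor related to yeast RAVE, the lowest (−1.06, adjusted p = 0.0101, edgeR). With LPS+torin1, 7 rose from LPS and 2 fell in polysome-associated mRNA (beside 20.3% and 18.2% of all genes). Of the Ragulator and Rag GTPases, 9 of 10 in the table, 3 rose and 1 fell on polysomes with LPS, with Rragc at the top (0.76, adjusted p = 0.00589, edgeR) and Rragb at the bottom (−1.26, adjusted p = 0.00116, edgeR), and 2 rose and 0 fell between LPS+torin1 and LPS (2 and 1 with the replicate block). The 3 and the 2 that rose are near the shares of all genes, 26.4% and 20.3%.

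Within the TFEB family the mRNAs went apart with LPS. Tfeb fell from 16.5, 12.2 and 17.5 CPM to 2.17, 2.73 and 2.99 CPM in total mRNA (log2 fold change −2.54, adjusted p = 6.88e-06, edgeR), and by 2.90 in polysome-associated mRNA (−2.90, adjusted p = 8.70e-05, edgeR). Tfec rose by 2.05 and 2.21 (adjusted p = 3.38e-06 and 9.77e-05, edgeR), Mitf by 0.49 and 0.56 (adjusted p = 0.0519 and 0.0533, edgeR) and Tfe3 by 0.41 and 0.28 (adjusted p = 0.00479 and 0.214, edgeR). All 4 rose in total mRNA from LPS to LPS+torin1, by 0.96 for Tfeb, 0.59 for Mitf, 0.38 for Tfec and 0.23 for Tfe3, and only Mitf passed in polysome-associated mRNA (0.53, adjusted p = 0.105, edgeR). Levels of mRNA do not show where these factors were in the cell.

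Of the mRNAs that the study also followed across gradients by qRT-PCR, 5 outside the V1 domain were listed here as a reference for these changes, and the others were not used. Ctsd, a lysosomal protease, rose between LPS+torin1 and LPS by 1.03 in total and 0.98 in polysome-associated mRNA (adjusted p = 0.00228 and 0.00267, edgeR), and Lamp1, a lysosomal membrane protein, by 0.42 and 0.36 (adjusted p = 0.00706 and 0.128, edgeR). In the same comparison the controls of other function had −0.28 and −0.43 for Actb (adjusted p = 0.104 and 0.108, edgeR), −0.16 and −0.31 for Ppia (adjusted p = 0.257 and 0.233, edgeR, the former 0.118 with the replicate block) and −0.34 and −0.41 for B2m (adjusted p = 0.197 and 0.151, edgeR). With LPS the polysome-associated changes were 0.43 for Ctsd, 0.20 for Lamp1, 0.70 for Actb, 0.26 for Ppia and 1.11 for B2m, of which those of Lamp1 (adjusted p = 0.329, edgeR) and Ppia (adjusted p = 0.254, edgeR) did not pass. Both passed with the replicate block (adjusted p = 0.211 and 0.173, edgeR).

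The 5 genes whose total mRNA was most like the mean pattern of the members over 9 libraries were Prr13, Sri, Anxa5, Pcyt1a and Vav3, with Pearson r from 0.987 to 0.992 among 11235 genes ranked. In polysome-associated mRNA they were Atg12, Rragc, Nras, Spata6 and Fnip1, with r from 0.985 to 0.987. Rragc is itself a Rag GTPase of the lists above. A high r over 9 libraries that share 3 treatments is met by many genes and is given as a description.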

How the data were processed

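RNA of 18 libraries (total and polysome-associated mRNA, 3 treatments, 3 experiments) was measured by sequencing. The authors removed ribosomal RNA, used Hisat2 for alignment to GRCm38 and featureCounts for counting by gene, kept protein-coding genes without a count of 0 in any library, and deposited raw counts without normalization. The version of Hisat2 is not given in the sources used here.

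Counts of 11243 genes were tested in R 4.3.3 with edgeR 4.0.16 (quasi-likelihood, TMM, 9 libraries per RNA type) and Benjamini-Hochberg adjustment over all genes. DESeq2 1.42.0 and an analysis of partial variance with limma 3.58.1, written because anota2seq was not installed, were alternatives, beside RLE factors, a mean of at least 1 CPM, fewer or all libraries in the fit, an adjusted p of 0.05, and each experiment left out. Scripts were tested on simulated data. Log2 CPM used a prior count of 2. All members were named, with the whole V0 and TFEB lists, 5 mRNAs followed by qRT-PCR in the study, and the extremes of the other lists. Members and lists were chosen with earlier results of these data known.

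Groups and experiment numbers come from the labels. Deviations from treatment means of libraries with the same number correlated across genes in every pair of total mRNA (lowest r 0.146, mean 0.359), so blocked values are given where the call of a named gene changes. The mean for other numbers, −0.178, adds no separate evidence, because deviations from a treatment mean cancel within the treatment. In polysome-associated mRNA the lowest r for the same number was −0.100 (mean 0.301).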

Additional observations from a re-analysis of the deposited data

How the results depend on the processing

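All calls of members were in the higher direction under every alternative run. With one experiment left out, the number of members called with LPS ran from 4 to 5 in total and from 2 to 5 in polysome-associated mRNA (5 without experiment 2). From LPS to LPS+torin1 it ran from 4 to 6 in total and from 1 to 6 in polysome-associated mRNA (3 without experiment 1 and 1 without experiment 3), and at an adjusted p of at most 0.05 the latter was 2. For LPS+torin1 against control it stayed at 8 in total and ran from 5 to 6 in polysome-associated mRNA. The replicate block gave 6, 7 and 8 members in total mRNA and 3, 5 and 7 in polysome-associated mRNA, in the order of the comparisons, and changed no call of a member in the latter. In the interaction test with each lysate as a replicate block, 0 members passed. The mean r of the pairs was from 0.777 to 0.866 in total mRNA, and from 0.489 to 0.638 on polysomes, when an experiment was left out. Over the alternatives run, the stricter threshold among them, calls of single members were lost 29 times and gained 9 times. For the named genes outside the list, calls were lost 85 times and gained 29 times.

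Some values near 0 changed sign, and the cause was not tested. For LPS+torin1 against LPS, total Atp6v1h was −0.00714 with DESeq2 and −0.00721 with RLE factors, and polysome-associated Atp6v1g1 was 0.000243 with a mean of at least 1 CPM. For translation efficiency, Atp6v1a with LPS was 0.0195 in the analysis of partial variance. For LPS+torin1 against LPS, Atp6v1c1 was 0.0440 with DESeq2 and with RLE factors and 0.0620 in the analysis of partial variance, and Atp6v1e1 was −0.0168 with the lysate as replicate block. For LPS+torin1 against control, Atp6v1b2 was 0.0230 with DESeq2 and with RLE factors and 0.118 in the analysis of partial variance. With one experiment left out, total mRNA ran from −0.0194 to 0.219 for Atp6v1c1 and from −0.000101 to 0.0430 for Ppia with LPS, and from −0.0938 to 0.0966 for Atp6v1h and from −0.200 to 0.0723 for Atp6v0e2 between LPS+torin1 and LPS. Polysome-associated mRNA ran from −0.0288 to 0.178 for Atp6v1b2 and from −0.496 to 0.912 for Atp6v0c with LPS, and from −0.0738 to 0.0891 for Atp6v1g1 and from −0.0525 to 0.138 for Atp6v0e between LPS+torin1 and LPS. Translation efficiency with LPS ran from −0.0899 to 0.0381 for Atp6v1a, from −0.0338 to 0.123 for Atp6v1d, from −0.0343 to 0.175 for Atp6v1e1, from −0.0803 to 0.221 for Atp6v1f and from −0.0397 to 0.0610 for Atp6v1h. For LPS+torin1 against LPS it ran from −0.0598 to 0.0672 for Atp6v1c1 and from −0.100 to 0.0769 for Atp6v1e1, and between LPS+torin1 and control from −0.0614 to 0.0491 for Atp6v1b2, from −0.0146 to 0.259 for Atp6v1c1 and from −0.0191 to 0.252 for Atp6v1e1.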
